A study of Mus musculus with 15 samples.

Results

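The secretory airway cell genes are 9 genes of the secretory cells that line the airways: the secretoglobins Scgb1a1, Scgb3a1 and Scgb3a2, the BPI fold proteins Bpifa1 and Bpifb1, the gel-forming mucins Muc5b and Muc5ac, the antibacterial lectin Reg3g and the retinal-oxidising enzyme Aldh1a1. They were taken by gene name from the lung count table, which lists 54532 genes. Each name matched 1 row. The lungs came from male wild type C57BL/6J mice, an inbred laboratory strain, with an age of 28 weeks in the labels, although the times in the study's methods, from purchase through adaptation and feeding, add up to a higher age. The CS group had 3 mice on a control diet, and the PS group had 3 mice on the same diet with 2% phytosterols, plant sterols that resemble cholesterol. Livers of 4 CS and 5 PS mice were also sequenced, and 6 mice gave both tissues. Each library came from 1 mouse and from a piece of frozen whole tissue, so it mixes all the cell types of that piece, and no source used here says which lobe was taken or whether an airway was in it.

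Secretory cells share the airway surface with ciliated and basal cells. Club cells, the main secretory cells of the smaller mouse airways, release secretoglobin 1a1 and are progenitors that can renew the airway lining. Larger airways, the trachea and the submucosal glands add BPI fold proteins, secretoglobin 3a1 and Muc5b, which together form the mucus and antimicrobial layer that clears particles. Muc5ac is low in the healthy mouse lung and is known for its rise in allergic inflammation.

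The 6 lung libraries held 17934930 to 19396057 counts on genes, and the 9 liver libraries 14410117 to 17625179. Sftpc, the surfactant protein of alveolar type II cells, stood at 12500 to 26519 FPKM (fragments per kilobase of gene length, scaled to the library's depth) in lung. In liver it reached at most 0.697 FPKM. Alb, the serum albumin of hepatocytes, stood at 21783 to 37436 FPKM in liver and 0.132 to 25.6 in lung. Of 16717 lung genes tested with edgeR, 802 were higher and 740 lower in PS at an adjusted p under 0.05. PS replicates 2 and 3 stood apart from the other 4 lungs in several of the secretory genes, and the results that rest on them are given with and without them. In bulk tissue, fewer cells of a type and less RNA per cell cannot be told apart.

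Promoter sequence was at hand for 5 of the 9 genes in RefSeq (GRCm38.p6). The 4 windows below belong to 4 of the 5 genes whose levels spread most between PS lungs, and they are shown because these genes were low in the same 2 lungs. Each gives the 250 bases before the start, 5′ to 3′ on the strand of the gene. Capitals mark matches to TATTTAC (a forkhead form), CACTTG (an Nkx2 form), TTCNNNGAA (a STAT form) and TATAAA (the TATA box), searched on both strands together with TGTTTAC, the other forkhead form.
Scgb3a1, chr11:49663345-49663594, plus strand: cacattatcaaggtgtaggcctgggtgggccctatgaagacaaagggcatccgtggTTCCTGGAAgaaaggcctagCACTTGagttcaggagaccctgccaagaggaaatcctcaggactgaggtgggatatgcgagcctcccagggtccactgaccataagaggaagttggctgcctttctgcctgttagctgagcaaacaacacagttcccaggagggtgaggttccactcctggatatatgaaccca
Bpifa1, chr2:154142630-154142879, plus strand: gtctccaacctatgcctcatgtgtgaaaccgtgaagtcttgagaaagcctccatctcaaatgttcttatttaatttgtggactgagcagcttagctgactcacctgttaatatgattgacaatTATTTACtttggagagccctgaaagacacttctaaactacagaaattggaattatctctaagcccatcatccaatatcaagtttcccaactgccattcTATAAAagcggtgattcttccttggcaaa
Bpifb1, second start, chr2:154200130-154200379, plus strand: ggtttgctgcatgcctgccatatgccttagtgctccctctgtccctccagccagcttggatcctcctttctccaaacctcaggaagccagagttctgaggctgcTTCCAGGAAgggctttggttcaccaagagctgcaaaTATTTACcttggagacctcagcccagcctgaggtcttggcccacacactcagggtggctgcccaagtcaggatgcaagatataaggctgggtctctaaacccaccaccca
Reg3g, chr6:78468875-78469124, minus strand: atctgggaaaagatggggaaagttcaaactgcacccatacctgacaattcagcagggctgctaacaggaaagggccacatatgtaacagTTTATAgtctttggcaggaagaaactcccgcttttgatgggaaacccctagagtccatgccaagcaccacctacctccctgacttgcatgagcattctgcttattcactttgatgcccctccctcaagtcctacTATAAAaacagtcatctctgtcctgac
The neighbours Bpifa1 and Bpifb1 both held TATTTAC, 127 and 110 bases before the start, a form present in 2.73% of the 32851 RefSeq promoters of this length. Scgb3a1 held CACTTG 174 bases before its start, a form in 11.6% of promoters. Both Scgb3a1 (194 bases before) and Bpifb1 (146 bases before) held the STAT form, found in 7.02%. TATAAA, in 12.4% of promoters, lay 29 bases before the start of Bpifa1 and 27 before that of Reg3g, and again in reverse at 161 in Reg3g. TGTTTAC, present in 3.17% of promoters, was not in these windows. No 2 of these matches overlapped. The first annotated start of Bpifb1 held none of the 5 forms, and a window of Aldh1a1 on its own strand held TATTTAC and CACTTG in reverse, 213 and 115 bases before the start. Such matches describe letters and are not binding sites.

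The members differed widely in level. Scgb1a1 (ENSMUSG00000024653, chromosome 19, 9083636 to 9087958, GRCm38) ranked 1 among all genes by deposited FPKM in every lung, with a median of 92295 FPKM, a lowest value of 74520 and a highest of 136125. Its reads made up 3.47% of the counts in the lung with the smallest share (95% Wilson interval 3.46 to 3.48) and 6.61% in the lung with the largest (6.59 to 6.62), intervals that cover counting error only. Scgb3a2 followed with a median of 1594 FPKM, below Scgb1a1 and above Scgb3a1 in all 6 lungs. The next genes were Scgb3a1 at a median of 349.7 FPKM and Aldh1a1 at 291.7, with Aldh1a1 the higher in 4 of the 6 lungs, so these neighbours did not differ beyond their spread. Bpifa1 had a median of 147.1 FPKM and was below Aldh1a1 in 4 lungs. Reg3g (10.5 FPKM) and Bpifb1 (9.83 FPKM) had nearly the same median, and Reg3g was the higher of the pair in 1 lung. Muc5b followed at 3.08 FPKM and Muc5ac at 0.0563 FPKM. Muc5b was below Bpifb1 and above Muc5ac in all 6 lungs, although the ranges of neighbouring genes overlapped over the 6 lungs everywhere but between Scgb1a1 and Scgb3a2.

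**Figure D1:**
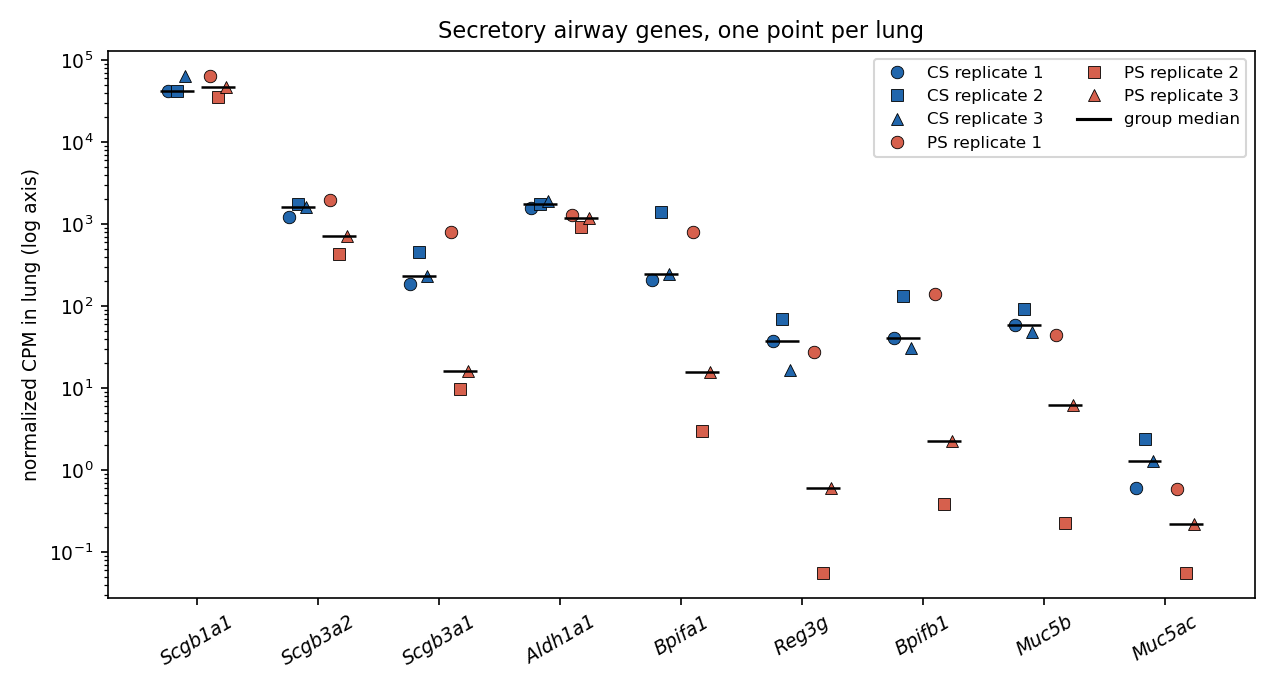
Normalized CPM (counts scaled by library size and TMM factor, log axis) of the 9 secretory airway genes in each lung, ordered by median FPKM, with CS in blue, PS in red, a marker shape per replicate and a bar at the group median. Scgb1a1 stays between 34995 and 64296 in all lungs, whereas Bpifa1, Bpifb1, Scgb3a1, Muc5b and Reg3g lie far lower in PS replicates 2 and 3 than in the other 4 lungs.

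The secretoglobins, small secreted proteins of the airway lining, did not move together. Scgb1a1 stood at 41163, 41916 and 64296 normalized CPM in CS replicates 1 to 3 and at 63918, 34995 and 46278 in PS replicates 1 to 3. The groups overlapped, and the highest CS and PS lungs were alike. The means were 49125 ± 13144 (SD, n = 3) in CS and 48397 ± 14578 (SD, n = 3) in PS. The log2 fold change of PS over CS was -0.02 (SE 0.32, edgeR adjusted p = 0.973), and its sign turned when a trend with GC content or gene length was removed and when CS replicate 3 (0.26), PS replicate 2 (0.17) or PS replicate 3 (0.0098) was left out, while it stayed below 0 without each of the other lungs.

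Scgb3a2 (ENSMUSG00000038791, chromosome 18), a secretoglobin of airway epithelium that appears early in the club cell lineage, stood at 1216, 1739 and 1587 CPM in CS and at 1963, 428.3 and 715.1 in PS. PS replicate 1 had the highest value of the 6 lungs, and PS replicates 2 and 3 the lowest. The log2 fold change was -0.55 (SE 0.49, edgeR adjusted p = 0.48). Scgb3a1 (ENSMUSG00000064057, chromosome 11, 49663610 to 49665118), a secretoglobin of larger airways, stood at 184.7, 456.4 and 233.1 CPM in CS and at 789.8, 9.82 and 16.1 in PS. It showed the same order, with a far wider gap. The counts behind the PS values were 13348, 176 and 292. With all 6 lungs the log2 fold change was -0.10 (SE 1.73, edgeR adjusted p = 0.978), a difference well inside the spread between PS lungs.

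The BPI fold proteins bind lipids and lipopolysaccharide on the airway surface. Their genes lie in the same cluster on chromosome 2, Bpifa1 (ENSMUSG00000027483) at 154142880 to 154149219 and Bpifb1 (ENSMUSG00000027485) at 154190818 to 154220369. Bpifa1, the abundant palate, lung and nasal epithelium clone protein, stood at 209.8, 1414 and 244.1 CPM in CS and at 791.1, 3.01 and 15.5 in PS. Bpifb1 stood at 40.3, 133.4 and 30.7 CPM in CS and at 138.2, 0.391 and 2.26 in PS. For both genes CS replicate 2 and PS replicate 1 were high and PS replicates 2 and 3 were below every other lung. In PS replicate 2 these levels rest on 54 counts of Bpifa1 and 7 of Bpifb1. The groups overlapped for both. The log2 fold change was -1.21 (SE 2.07, edgeR adjusted p = 0.737) for Bpifa1 and -0.54 (SE 1.91, edgeR adjusted p = 0.88) for Bpifb1.

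The gel-forming mucins lie side by side on chromosome 7, Muc5ac (ENSMUSG00000037974) at 141788972 to 141819231 and Muc5b (ENSMUSG00000066108) at 141839070 to 141873084. Muc5b, the mucin that healthy mouse airways need for clearance, stood at 59.3, 92.5 and 47.7 CPM in CS and at 44.2, 0.223 and 6.18 in PS. All 3 PS lungs lay below all 3 CS lungs, PS replicate 1 only just so. The value in PS replicate 2 rests on 4 counts. Its log2 fold change was -1.98 (SE 1.42, edgeR adjusted p = 0.405). Muc5ac had 12, 47 and 24 counts in CS and 10, 1 and 4 in PS, or 0.606, 2.42 and 1.30 CPM against 0.592, 0.0558 and 0.221. Its groups did not overlap, but CS replicate 1 and PS replicate 1 differed by only 2 counts. The log2 fold change was -2.31 (SE 0.76, edgeR adjusted p = 0.0816). The longest alignment between transcripts of the mucins had 71.3% identity over 1340 bases, below the 95% at which reads were taken as shared. Shorter alignments were not examined.

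Reg3g (ENSMUSG00000030017, chromosome 6, 78466269 to 78468872) encodes a C-type lectin that binds Gram-positive bacteria. It stood at 37.5, 70.1 and 16.8 CPM in CS and at 27.4, 0.0558 and 0.607 in PS. PS replicate 1 lay within the CS range, and PS replicates 2 and 3 had 1 and 11 counts. The log2 fold change was -2.16 (SE 1.71, edgeR adjusted p = 0.45).

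Aldh1a1 (ENSMUSG00000053279, chromosome 19, 20492715 to 20643462) oxidises retinal to retinoic acid and is found in airway epithelium as well as in other cells. Its replicates were close. It stood at 1570, 1768 and 1929 CPM in CS and at 1280, 913.8 and 1186 in PS. All 3 PS lungs were below all 3 CS lungs. The means were 1756 ± 180 (SD, n = 3) and 1127 ± 190.0 (SD, n = 3), a ratio of 0.642, and the log2 fold change was -0.64 (SE 0.20). Its edgeR adjusted p was 0.0692 and so missed the threshold, whereas DESeq2's Wald test gave 0.00623. Its nearest copy, Aldh1a7, matched at 89.1% identity over 2072 bases.

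**Figure D2:**
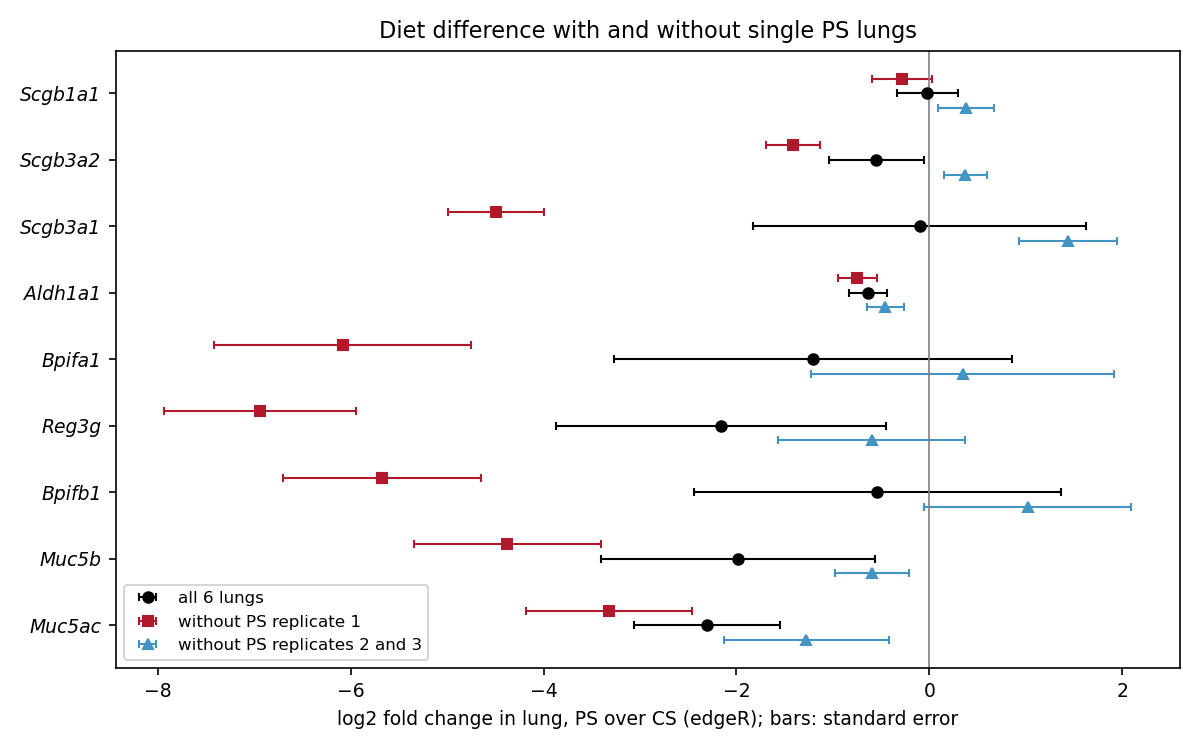
Log2 fold change of PS over CS in lung for each gene (edgeR), with bars of 1 standard error, from all 6 lungs (black), without PS replicate 1 (red) and without PS replicates 2 and 3 (blue). For Scgb3a1 the value runs from -4.50 to 1.44 and for Aldh1a1 from -0.75 to -0.46.

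All 9 members passed the filter on low counts, and none passed an adjusted p of 0.05 in either direction, where 9.22% of all genes tested did (4.43% lower and 4.8% higher). At an unadjusted p under 0.05 edgeR gave 2 members, Muc5ac and Aldh1a1, against 30.1% of all genes. DESeq2 called the same 2 lower at an adjusted p under 0.05 (8.85% of all genes) and none higher (9.64%). It gave no p for Scgb3a1, Bpifa1 and Bpifb1, which it could therefore not call. All 9 log2 fold changes were below 0, with a median of -0.64, where 49.6% of all genes were below 0 and the median was 0.01. Without overlap between the diets, 3 members were lower (Muc5b, Muc5ac and Aldh1a1), where 18.8% of all genes were.

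Some members differed widely between PS lungs. The highest PS lung exceeded the lowest 354-fold for Bpifb1, 262-fold for Bpifa1, 198-fold for Muc5b, 80.4-fold for Scgb3a1 and at least 164-fold for Reg3g, a bound because lungs under 3 counts were set to that floor. In the CS group the ratios of these genes, in the same order, were 4.35, 6.74, 1.94, 2.47 and 4.18. A ratio of at least 10-fold was thus reached by 5 of the 9 members in PS, against 0.79% of all genes tested, and by none in CS, against 0.377%. Scgb3a2 had a ratio of 4.58 in PS and 1.43 in CS. Aldh1a1 and Scgb1a1 had ratios of 1.40 and 1.83 in PS, above those of 39.9% and 70.2% of all genes tested, and 1.23 and 1.56 in CS. Muc5ac had 3.98 in CS and at least 3.53 in PS, a bound set by the floor, since PS replicate 2 had 1 count.

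Without PS replicate 1, edgeR called 8 of the 9 members lower in PS, all but Scgb1a1, where 6.95% of all genes were called lower. The log2 fold changes then were -6.94 for Reg3g (adjusted p = 0.0101), -6.08 for Bpifa1 (adjusted p = 0.0306), -5.68 for Bpifb1 (adjusted p = 0.0185) and -4.50 for Scgb3a1 (adjusted p = 0.00518). Muc5b stood at -4.38, Muc5ac at -3.32, Scgb3a2 at -1.41 and Aldh1a1 at -0.75. Without PS replicates 2 and 3, none was called, where 4.07% of all genes were called lower, and 5 members had a log2 fold change above 0, from 0.35 for Bpifa1 to 1.44 for Scgb3a1. Muc5b (-0.59), Muc5ac (-1.28), Reg3g (-0.60) and Aldh1a1 (-0.46) stayed below 0. Leaving out PS replicate 2 or 3 alone called 0 members, where 0.041% and 7.67% of all genes were called lower. With no filter on low counts Muc5ac was called lower, where 3.78% of all genes were. In the comparison without PS replicates 2 and 3, PS replicate 1 stands alone and is assumed to vary like the CS lungs.

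Markers of heart muscle and fat were low in PS replicates 2 and 3. The summed CPM of 6 heart and skeletal muscle genes was 100.4, 153.4 and 370.0 in CS and 364.2, 11.5 and 29.6 in PS, and none of the 6 was called. Myl7, the atrial myosin light chain, stood at 23.1, 37.3 and 23.7 CPM in CS and at 117.7, 6.08 and 6.95 in PS. Acta1, the skeletal muscle actin, reached 221.0 CPM in CS replicate 3 and at most 0.710 in the other lungs. The sum of 6 fat cell genes was 115.3, 156.5 and 23.3 in CS and 125.0, 10.6 and 8.0 in PS, with 0 of 6 called. Of these, Cfd and Adipoq, the fat cell products adipsin and adiponectin, were at 0 in PS replicates 2 and 3, and Cidec, a lipid droplet protein, was at 10.4 and 7.34 CPM there. The part of these tissues in the secretory gene values was not tested.

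The 10 ciliated cell genes summed to 838.4, 1035 and 1242 CPM in CS and to 1074, 463.9 and 854.1 in PS. None was called, 8 of 10 had a log2 fold change below 0 and the median was -0.42. The largest was that of Dnah5, a dynein heavy chain of cilia, at -1.75 (SE 0.56, edgeR adjusted p = 0.0866), with 66.5 to 92.2 CPM in CS and 26.7, 6.25 and 38.1 in PS, and the master regulator Foxj1 ran from 48.7 CPM in PS replicate 2 to 192.6 in CS replicate 3. Tppp3, the most abundant of them and the main part of the sum, ran from 302.1 to 622.4. Alveolar type II genes summed to 20286 to 21404 CPM in CS and 22245 to 34719 in PS, with Etv5, a transcription factor of these cells, called lower (log2 fold change -0.58, SE 0.13, edgeR adjusted p = 0.0369). The sum follows Sftpc, which ran from 12878 to 13892 CPM in CS and from 16305 to 27052 in PS (log2 fold change 0.82, SE 0.26, edgeR adjusted p = 0.0764). By gene, 5 of the 8 were below 0 with a median of -0.15, among them Abca3 (-0.9995, SE 0.28, edgeR adjusted p = 0.0549), Slc34a2 (-0.57, SE 0.18) and Lamp3 (-0.26, SE 0.20), while Sftpb stood at 0.04 (SE 0.17). Napsa was higher in every PS lung, at 301.5, 419.4 and 261.5 CPM against 226.1 to 234.4 in CS (log2 fold change 0.50, SE 0.19, edgeR adjusted p = 0.118). The 7 alveolar type I genes, led by Ager and Hopx in mean FPKM, summed to 5148 to 6445 CPM in CS and 5513 to 6430 in PS, with 0 called. Basal cells left little signal, with 2.48 to 16.3 CPM summed in CS and 3.03 to 5.92 in PS and 0 called of 3 tested. Their keratin gene Krt5 ranged from 0 to 147 counts per lung, and Aqp3 was the most abundant of them by mean FPKM. Of the neuroendocrine genes 5 were tested and 0 called, 4 had a log2 fold change below 0 and the median was -0.97. Their sums were 13.9995, 15.6 and 16.6 CPM in CS and 17.4, 6.53 and 12.9 in PS, with Calca and Resp18 as the most abundant.

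**Figure D3:**
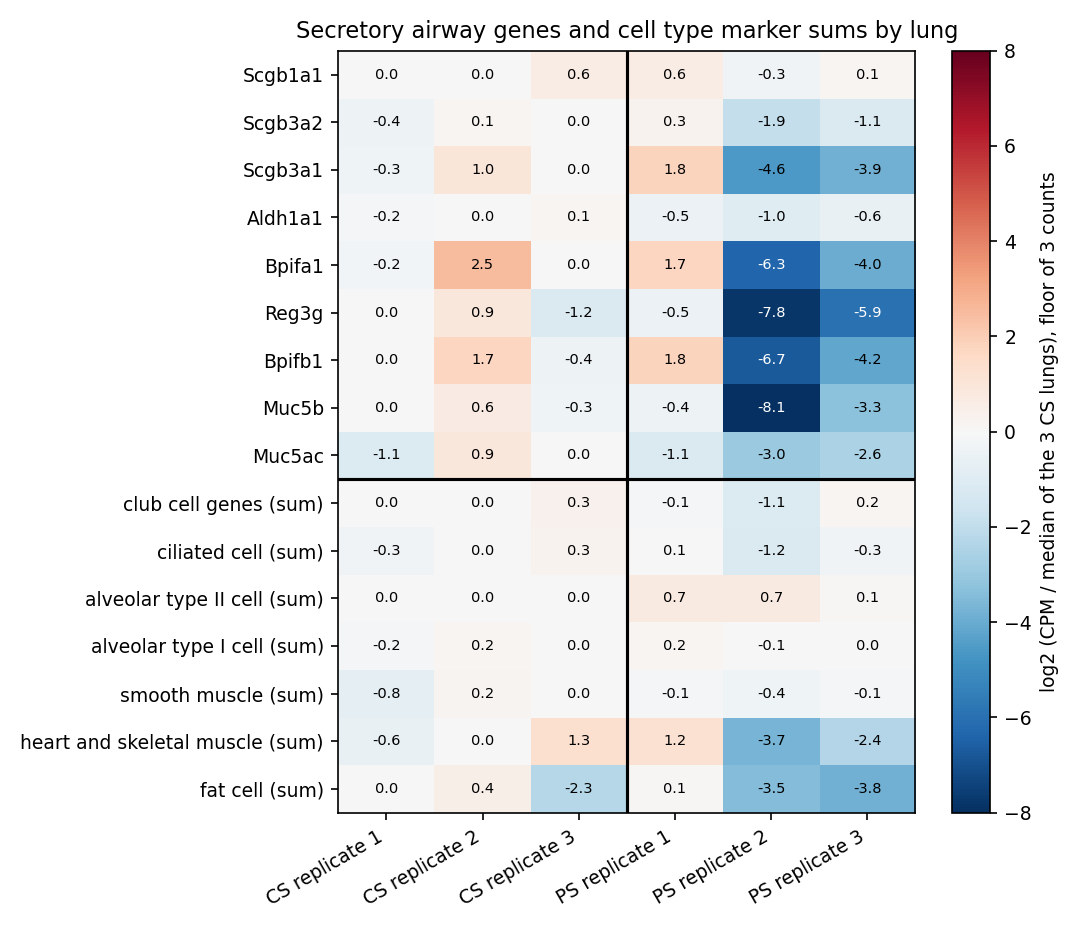
Log2 of the CPM in each lung over the median of the 3 CS lungs, for the 9 genes (above the line) and for summed cell type markers (below it), in red where higher and blue where lower, with the colours capped at 8 in either direction. Lungs under 3 counts (PS replicate 2 for Reg3g and Muc5ac) are set to that floor and are bounds. PS replicates 2 and 3 are low for Bpifa1 (-6.34 and -3.98), Bpifb1 (-6.69 and -4.15), heart and skeletal muscle (-3.74 and -2.37) and fat (-3.45 and -3.85), and near 0 for Scgb1a1 (-0.26 and 0.14).

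Smooth muscle, cartilage and plasma cell markers completed the survey of other tissue. Smooth muscle genes summed to 469.3 to 929.2 CPM in CS and 618.8 to 740.7 in PS with 0 of 6 called, including Acta2 and Des. Of 10 airway cartilage genes only Col9a3 was tested. It was called higher, from 0.217 to 0.771 CPM in CS to 1.18 to 2.79 in PS (log2 fold change 2.05, SE 0.54, edgeR adjusted p = 0.0483), while Acan, Col9a1 and Snorc were at 0 in every lung and Hapln1 had 5 to 18 counts. Plasma cell genes summed to 2524 to 4212 CPM in CS and 5548 to 6144 in PS, and 0 of 5 were called, Igha and Jchain, the immunoglobulin A chain and its joining chain, included.

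Other genes of club cells leaned lower in PS, and Cckar fell the most. Of 11 such genes 10 were tested, all 10 had a log2 fold change below 0 with a median of -0.54, and 1 was called. Their summed CPM was 7298, 7104 and 9158 in CS and 6970, 3434 and 8124 in PS. The called gene was Cckar, the cholecystokinin A receptor, which fell from 102.6, 87.0 and 132.3 CPM in CS to 38.4, 14.5 and 50.8 in PS (log2 fold change -1.63, SE 0.40, edgeR adjusted p = 0.0437). Every PS lung was below every CS lung. Cyp2f2, the naphthalene-metabolising cytochrome by which club cells are known, stood at 2640, 2369 and 2989 CPM in CS and at 2384, 970.2 and 2827 in PS. Cbr2, a carbonyl reductase of the same cells, stood at 2480, 2799 and 3766 in CS and at 2467, 1482 and 3592 in PS. For both, PS replicate 3 was within the CS range and PS replicate 2 was not. Gabrp, a subunit of a GABA receptor, was below the CS range in both (33.2 and 61.4 CPM in PS replicates 2 and 3, against 97.5 to 132.5 in CS).

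Of 16 goblet cell and mucus genes 12 were tested and 0 called, a median of -0.49 on the log2 scale and Tff3 at 0 in every lung. Muc1, the membrane mucin with the highest level among them, had a log2 fold change of 0.08 (SE 0.17, edgeR adjusted p = 0.784). Tff2, a trefoil peptide secreted with mucus, stood at 5.66, 14.03 and 8.25 CPM in CS and at 18.1, 0 and 0.221 in PS, again highest in PS replicate 1. Agr2, the mucin-folding disulfide isomerase, and Gp2, a bacteria-binding glycoprotein, were picked after their values were seen. Agr2 stood at 2.17, 5.29 and 1.41 CPM in CS and at 5.33, 0.167 and 0.0552 in PS. Gp2 ran from 1.01 to 3.50 CPM in CS and was at 3.02, 0 and 0 in PS. The other genes of the list were mixed in these lungs. Creb3l1, a transcription factor of secretory cells, stood at 21.1, 21.4 and 22.3 CPM in CS and at 28.3, 36.5 and 26.7 in PS. Muc16, a membrane mucin, stood at 7.43, 20.5 and 3.91 CPM in CS and at 5.56, 24.7 and 2.48 in PS. Spdef, the goblet cell factor, stood at 2.38, 2.00 and 2.39 CPM in CS and at 3.31, 1.56 and 2.32 in PS, so both genes overlapped between the diets. Muc20 had 5.80, 2.18 and 2.87 CPM in PS against 5.46 to 7.33 in CS, and Muc4 had 9.64, 6.31 and 6.84 in PS against 10.5 to 10.96 in CS. Fcgbp had 7.16, 3.29 and 2.81 in PS against 3.84 to 7.14 in CS. Galnt12 was lowest in PS replicate 1, with 3.43, 4.97 and 4.75 in PS against 5.76 to 6.51 in CS.

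Gland and antimicrobial secretions were tested for 7 of 9 genes, with 0 called and a median of -0.05. Wfdc2, a whey acidic protein of airway cells, had a log2 fold change of -0.05 (SE 0.26) and Lyz1, lysozyme, one of -0.63 (SE 0.24, edgeR adjusted p = 0.114). Ltf, lactoferrin, again picked by its values, stood at 20.1, 67.4 and 44.5 CPM in CS and at 131.1, 2.23 and 3.26 in PS. In the same list Slpi, a protease inhibitor, was highest in PS replicates 2 and 3 (83.6 and 76.9 CPM, against 34.95 to 69.1 in CS). Lcn2, lipocalin 2, stood at 152.7, 176.7 and 51.0 CPM in PS against 91.7 to 125.5 in CS. Pigr, which carries immunoglobulin A across epithelium, stood at 121.5, 28.4 and 37.0 in PS against 79.0 to 132.7 in CS. Of 16 regulators of airway cell fate all 16 were tested and 1 was called, Grhl2, a grainyhead transcription factor of epithelial junctions, which fell from 24.4, 26.3 and 28.3 to 18.5, 15.4 and 16.4 CPM (log2 fold change -0.65, SE 0.16, edgeR adjusted p = 0.0402). The list's median was -0.41, and 10 of the 16 were below 0. Nkx2-1, the lung lineage factor, had 0.54 (SE 0.17, edgeR adjusted p = 0.0692) and Hes1, a Notch target, 0.59 (SE 0.19, edgeR adjusted p = 0.0801). Foxa1 had -0.66 (SE 0.19, edgeR adjusted p = 0.0609) and Notch2 -0.62 (SE 0.17, edgeR adjusted p = 0.05385). Sox2 stood at 31.3, 9.94 and 22.8 CPM in PS against 26.0 to 36.4 in CS. Ehf stood at 38.3, 24.8 and 19.5 in PS against 35.3 to 52.4 in CS.

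No gene of 2 lists of signals known to change secretory cells was called, where 9.22% of all genes were and few genes of these lists could be tested. Of 10 type 2 response genes 5 were tested and 0 called (median -0.03), with Retnlb at 0 in every lung. Chil3, a chitinase-like protein of macrophages, had a log2 fold change of 0.07 (SE 0.19) and Retnla, a resistin-like protein, one of -1.26 (SE 0.71, edgeR adjusted p = 0.291). Retnla stood at 78.5, 119.6 and 45.4 CPM in CS and at 70.8, 16.9 and 14.3 in PS, lowest in PS replicates 2 and 3. Of 9 genes of the interleukin 17 and 22 response, which drives Reg3g in other settings, 5 were tested and 0 called (median 0.50), with Il22 at 0. S100a8 and S100a9, the calprotectin chains of neutrophils, had 0.46 (SE 0.59) and 0.50 (SE 0.59). Cxcl5 was the only 1 of the 5 below 0 (log2 fold change -1.465, SE 1.14, edgeR adjusted p = 0.433). It stood at 14.9, 7.35 and 20.8 CPM in CS and at 13.9, 0.726 and 0.993 in PS.

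The retinoic acid pathway, to which Aldh1a1 belongs, held 3 called genes among 13 tested of 17, where 9.22% of all genes were called, with a median of -0.15. Rarb, a retinoic acid receptor that is itself a target of the pathway, fell from 3.23, 2.93 and 4.23 CPM to 0.355, 0.0558 and 1.05 (log2 fold change -2.81, SE 0.68, edgeR adjusted p = 0.0406). Aldh1a7, a close relative of Aldh1a1, fell from 164.9, 154.6 and 207.1 to 88.7, 44.7 and 104.0 (log2 fold change -1.15, SE 0.28, edgeR adjusted p = 0.0426). Rara, another receptor, rose from 56.1, 51.1 and 44.7 to 74.6, 82.4 and 76.7 (log2 fold change 0.62, SE 0.14, edgeR adjusted p = 0.0364). Groups did not overlap for any of the 3. Dhrs3, which reduces retinal back to retinol, had a log2 fold change of 0.43 (SE 0.13, edgeR adjusted p = 0.0651). Each call among these lists was lost when any single CS lung or PS replicate 2 was left out, in which case the lists together held 0 higher and 0 lower.

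The relatives of the members were mostly silent. Of 66 other secretoglobin genes 63 were at 0 in every lung and 1 was tested, Scgb1c1, with a log2 fold change of -0.10 (SE 0.23, edgeR adjusted p = 0.8), while Scgb1b30 had 1 count in all. Of 12 other BPI fold genes 6 were at 0 and only Bpifb5 was tested, at -0.33 (SE 0.34), while Bpifa2 had 2 to 5 counts per lung. None of 5 other regenerating genes was tested: Reg1 had at most 3 counts in a lung, and Reg3b, the nearest relative of Reg3g at 78.0% identity, had 5 counts over all 6 lungs. Of 11 other mucins 4 were tested and 0 called, with Muc20 at -0.87 (SE 0.37, edgeR adjusted p = 0.155). Of the 3 other Aldh1a genes only Aldh1a7 was called, and Aldh1a2 ran from 7.78 to 76.6 CPM within the PS group.

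The liver served as a tissue without airways. Muc5ac, Bpifa1 and Scgb3a2 were at 0 in all 9 livers. Scgb1a1 had 37 counts over the 4 CS livers, 25 of them in CS replicate 4, and 3 over the 5 PS livers. Scgb3a1 had 5 and 13, Reg3g 0 and 9, Bpifb1 0 and 2 and Muc5b 0 and 1. None of these 8 passed the filter in liver.

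Aldh1a1, a cytosolic enzyme that hepatocytes also carry, was the exception. It stood at 1184, 659.1, 987.0 and 1425 CPM in CS livers and at 1043, 2080, 1503, 1803 and 1513 in PS livers. PS livers lay mostly above CS livers, and the groups overlapped. The means were 1064 ± 324 (SD, n = 4) and 1588 ± 387 (SD, n = 5), and the log2 fold change was 0.58 (SE 0.26, edgeR adjusted p = 0.66), in a tissue where 0.00758% of 13195 genes were called and 7.55% had an unadjusted p under 0.05. The diet difference in lung minus that in liver was -1.26 (SE 0.43, edgeR adjusted p = 0.347), which did not pass over all genes. The tables of the tissues were normalized separately, so the levels are set side by side only.

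**Figure D4:**
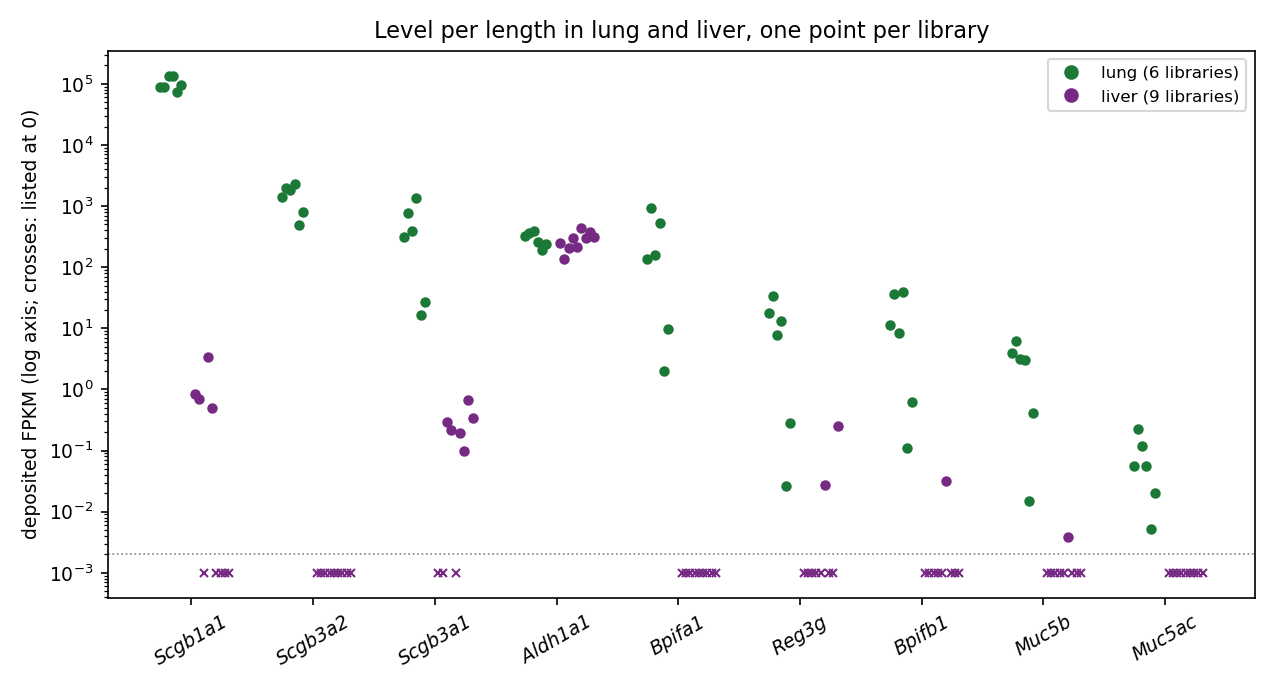
Deposited FPKM (log axis) of each gene in the 6 lungs (green) and 9 livers (purple), 1 point per library in the order CS then PS, with crosses under the dotted line for libraries listed at 0. The livers of Aldh1a1 (134.1 to 430.0 FPKM) overlap its lungs (187.7 to 389.6 FPKM), and the other 8 genes reach at most 3.44 FPKM in any liver.

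Over the 6 lungs, genes whose log2 CPM was among the most like the mean of the members were Rbks (Pearson r = 0.990, n = 6 lungs), Dgat2 (r = 0.983), Tff2 (r = 0.982) and Dnajc24 (r = 0.981). These values describe likeness only. They rest on the gap between PS replicates 2 and 3 and the other lungs, and Rbks itself moved only from 4.52 to 5.60 CPM. Most like Scgb1a1 were Slc22a18 (r = 0.990), Nop10 (r = 0.988) and Mrpl39 (r = 0.983), which share with it low values in PS replicate 2 and high values in CS replicate 3 and PS replicate 1.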

How the data were processed

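RNA was sequenced as poly-A libraries from frozen lung and liver, 1 library per mouse and tissue (15 libraries). By the submitters' processing notes and the study's methods, reads were aligned to mm10 with HISAT2 2.0.5 and counted per gene with featureCounts 1.5.0-p3, and DESeq2 1.20.0 was the study's test. The authors deposited raw counts per gene without normalization, and FPKM values, which scale these counts by gene length and a factor per library. The annotation and the use of strand in counting are not given in the sources used here. None of the 9 genes shares exon bases with another gene in GENCODE for GRCm38.

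From the counts, the diets were compared within each tissue with edgeR 4.0.16 (R 4.3.3; TMM scaling, its default filter on low counts, robust quasi-likelihood test, Benjamini-Hochberg adjustment over all genes tested). Each edgeR standard error was derived from its test, as the absolute log2 fold change over the square root of the F statistic. The difference between tissues was an interaction term over all 15 libraries. Groups came from the labels. CPM are counts scaled by the TMM-normalized library size, and a floor of 3 counts was set for ratios. Totals of 14410117 to 19396057 counts limit the precision of genes with few counts. The fits were tested on simulated data. In simulated lungs edgeR called 36 of 100 genes changed by 1 on the log2 scale and 80 of 100 changed by 2, with 14 unchanged genes called. DESeq2 called 52 and 84, with 39 unchanged genes called. The alternatives were DESeq2 1.42.0, its size factors, no filter, a minimum of 10 counts in every library, limma-trend 3.58.1 on log2(FPKM + 1) or log2(FPKM + 0.1), the replicate number as a block, and leaving out each library. Removal of trends with GC content or gene length (loess, span 0.3) and leaving out PS replicates 2 and 3 together were chosen after seeing the data.

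The 9 genes and the lists were chosen with earlier results of these data known. Of each list the called genes and the 2 with the highest mean FPKM are named, and the 5 and 3 genes most like the members and Scgb1a1, at a mean log2 CPM of at least 1, of which 1 is not reported here. Genes named beyond this (Agr2, Gp2, Creb3l1, Muc16, Spdef, Dnah5, Ltf, Slpi, Lcn2, Adipoq, Gabrp, Muc20, Muc4, Fcgbp, Galnt12, Pigr, Abca3, Slc34a2, Lamp3, Napsa, Cxcl5, Foxa1, Notch2, Sox2, Ehf, Syp) were picked by their values. Motifs were searched in RefSeq promoter windows of GRCm38.p6.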

Additional observations from a re-analysis of the deposited data

Results flagged for a closer look

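The liver values of each gene and diet were searched for a library far from the others by Dixon's criterion at the 95% level. It set apart a library in 4 of the 9 groups that held any spread, all of them PS groups. The usual rate of about 1 group in 20 by chance does not apply to Scgb1a1, Bpifb1 and Muc5b, since with the other 4 livers at 0 any single count is set apart. The PS livers of 3 genes were all at 0 and could not be tested. Each of the 4 values rests on very few counts. Scgb1a1 reached 0.232 CPM (3 counts) in PS replicate 1 and was at 0 in the other PS livers. Bpifb1 stood at 0.114 CPM (2 counts) and Muc5b at 0.0568 CPM (1 count) in PS replicate 2 only. Reg3g stood at 0.53 CPM (8 counts) in PS replicate 5, where the other PS livers had at most 1 count. No cause was tested. Lung groups, with 3 libraries each, were not searched.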

How the results depend on the processing

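No member was called higher in lung in any setting. Against 0 called lower, DESeq2 called 2 (with or without its independent filtering), no filter called 1 (Muc5ac, adjusted p = 0.0331), and leaving out single lungs gave 0 to 8, the 8 without PS replicate 1. DESeq2 gave no p for Scgb3a1, Bpifa1 and Bpifb1, as count outliers. The log2 fold change of Scgb1a1 turned to 0.047 with the GC trend removed and to 0.079 with the length trend removed. Without PS replicates 2 and 3 it was 0.38, with 1.44 for Scgb3a1, 0.37 for Scgb3a2, 0.35 for Bpifa1 and 1.02 for Bpifb1. Leaving out single lungs moved Scgb1a1 from -0.28 to 0.26, Scgb3a1 from -4.50 to 0.47, Bpifa1 from -6.08 to 0.23 and Bpifb1 from -5.68 to 0.39. On log2(FPKM + 0.1) the differences of the uneven genes were larger, with -2.42 for Scgb3a1, -3.61 for Bpifa1, -3.09 for Bpifb1 and -4.29 for Reg3g, none of them called. Over all lung genes (802 higher, 740 lower), DESeq2 called 1611 and 1479, no filter 1220 higher, limma-trend 495 higher (pseudocount 1) and 528 (pseudocount 0.1), and the comparison without PS replicates 2 and 3 gave 441 higher. Without single lungs the counts ran from 0 (without CS replicate 3) to 1752 higher (without PS replicate 1) and from 0 to 1309 lower (without PS replicate 3). They were 1 and 22 without CS replicate 1, 1 and 25 without CS replicate 2, and 2 and 7 without PS replicate 2. In the lists (2 higher, 5 lower), DESeq2 gave 11 and 13, no filter 5 and 9, the minimum of 10 counts 1 higher, limma-trend 1 higher at either pseudocount and 2 lower at 0.1, GC removal 0 higher, and omission of both PS lungs 4 and 10, while single lungs left out gave 0 to 6 higher and 0 to 26 lower. In the families (0 higher, 1 lower), no filter gave 1 higher, limma-trend at either pseudocount and GC removal 0 lower, and single lungs left out 0 to 2 higher and 0 to 3 lower. In liver (1 higher, 0 lower), DESeq2 gave 110 and 53, no filter 20 and 6, the minimum of 10 counts 2 higher, and single livers left out 0 to 43 higher and 0 to 22 lower. The difference between tissues was called for 4 genes, and for 228 by DESeq2. The median Scgb1a1 level in CS lungs was 88379 FPKM, and 212127 when counts per length were scaled to TPM. The causes were not tested.

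The labels tie no litter, batch or day to a replicate number. Deviations of same-numbered CS and PS lungs correlated at 0.05, -0.01 and 0.09, so the numbers were not taken to pair the lungs. With a replicate block the lung counts were 817 higher and 806 lower, no member changed its call, and the liver gave 0 higher. The block moved the log2 fold changes to -3.02 for Scgb3a1, -3.83 for Bpifa1, -3.20 for Bpifb1, -3.11 for Muc5b, -3.84 for Reg3g and -0.85 for Scgb3a2. With mouse as a block over 12 libraries, 0 genes differed between tissues, and Aldh1a1 stood at -1.14.

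The main limits are 3 lungs per diet and 2 PS lungs that set most values of the secretory genes. Low counts limit Muc5ac, Reg3g and Bpifb1 in PS replicates 2 and 3, and Muc5b in PS replicate 2 (4 counts).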
